A study of Mus musculus with 6 samples.

Results

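The organic ion and ABC drug transporters carry drugs, toxins, urate, carnitine, bile constituents and cellular waste across membranes. They were taken as every gene whose mouse symbol begins with Slc22a, Slco, Slc47a, Abcb, Abcc or Abcg and that had 10 or more counts in 3 or more libraries. This gave 56 genes of the 69 with such a symbol, among 57132 gene rows in all and 19927 genes tested. RNA was sequenced from isolated glomeruli, the filtering units of the kidney, of mice labelled as having diabetic kidney disease (DKD). The mice were Cre+/Setdb2fl/fl DKD (3 samples, Cre_positive) and, as their controls, Cre-/Setdb2fl/fl DKD (3 samples, Cre_negative), so that both groups carried floxed Setdb2 alleles and the disease label. Setdb2 encodes a putative histone H3 lysine 9 methyltransferase. The series' design text names the podocyte, the epithelial cell of the filter, as the cell in which SETDB2 was studied. The sources used here do not give the promoter that drives Cre, the diabetes model, the age, the sex or whether animals were pooled. Separate mice are not named for the replicates, so p-values measure only how far these samples spread, which may be technical.

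Proximal tubule cells take organic anions and cations up from the blood with transporters of the Slc22a family on their basal side, among them the organic anion transporters OAT1 (Slc22a6) and OAT3 (Slc22a8), and pass them to the urine with exporters of the Slc47a, Abcb, Abcc and Abcg families on the apical side. OAT1 and OAT3 exchange an anion outside for alpha-ketoglutarate inside, so that uptake depends on the sodium pump. ABC (ATP-binding cassette) proteins are driven directly by ATP, and some of them sit in mitochondria or lysosomes or act as channel subunits rather than as exporters. These transporters are chiefly known from tubules rather than from glomeruli.

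Libraries held 53571438 to 58807042 counts. Setdb2 itself had 427, 444 and 391 counts in the Cre_positive and 591, 492 and 370 counts in the Cre_negative libraries, a log2 fold change of -0.12 (adjusted p = 0.738), so these gene-level counts do not check the genotype labels. Xist, which is made from the inactive X chromosome of females, had 24 counts in Cre_positive replicate 2 and 36474 to 47632 counts in the other 5 libraries, while Ddx3y, Uty, Kdm5d and Eif2s3y of the Y chromosome had 0 counts in all 6. Calls of transporter genes that end without this library are named as such. Podocyte markers were present at a summed 833 to 928 CPM in Cre_positive and 614.5 to 698 CPM in Cre_negative libraries, and 3 of 11 rose. The 12 proximal tubule markers that are no members summed to 14731 to 16222 CPM in Cre_positive and 9646 to 11133 CPM in Cre_negative libraries, and 7 of them rose. In every library this sum lay far above that of the podocyte markers, so these glomerular samples held much RNA of tubule genes. The lists hold different genes, so their sums do not give shares of cells. Which cells the transporter counts came from was not tested. Of 10 injured epithelium markers 5 fell, with sums of 2137 to 2414 CPM in Cre_positive and 4248 to 12516 CPM in Cre_negative libraries. Spp1, which did not pass (adjusted p = 0.057), made up most of these sums. It had 1833, 1625 and 1873 CPM in Cre_positive and 10031, 4954.5 and 3314 CPM in Cre_negative libraries. Of 9 markers of the collecting duct, the distal tubule and the loop of Henle, 5 rose, with sums of 9908 to 10515 CPM in Cre_positive and 6248 to 7635 CPM in Cre_negative libraries. Umod was the largest part of these sums, at 4509 to 5247 CPM in Cre_positive and 2066 to 3106 CPM in Cre_negative libraries. Aqp2 (log2 fold change -0.66, adjusted p = 0.301) and Aqp3 (-0.12, adjusted p = 0.851) lay below 0 without passing, and the other 7 lay above it. The numbers of markers that rose or fell depended on single libraries. Without Cre_positive replicate 1, 2 and 3 in turn, 7, 7 and 4 proximal tubule, 3, 4 and 3 distal and 2, 1 and 1 podocyte markers rose, and 0, 2 and 0 injured epithelium markers fell. Without Cre_negative replicate 1, 2 and 3, the counts were 7, 8 and 8 proximal tubule, 4, 3 and 4 distal, 3, 2 and 3 podocyte and 6, 2 and 6 injured epithelium markers. No marker of a cell type list used here was at 0 in all libraries. The part of these tissue shifts in the transporter results was not tested, and in bulk samples fewer cells of a type and less RNA per cell cannot be told apart.

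The promoter windows of 4 of these genes are shown first, as a description of sequence. Slc22a6 and Slc22a8 lie next to each other on chromosome 19, and neither passed the threshold. Slc22a27 was the largest rise past the threshold, and Slc22a5 the only fall past it. Each window runs from 250 bases before to 50 bases after the start of the gene in RefSeq on GRCm38.p6, 5′ to 3′ on the gene's own strand, and capitals mark matches to the motifs named in the next paragraph.
Slc22a6, chr19:8617746-8618045, plus strand: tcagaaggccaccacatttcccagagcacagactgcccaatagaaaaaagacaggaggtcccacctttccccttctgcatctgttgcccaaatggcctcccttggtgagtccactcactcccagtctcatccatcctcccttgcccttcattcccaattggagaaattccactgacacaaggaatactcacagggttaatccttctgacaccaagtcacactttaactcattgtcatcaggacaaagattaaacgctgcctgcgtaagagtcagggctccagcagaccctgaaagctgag
Slc22a8, chr19:8592932-8593231, plus strand: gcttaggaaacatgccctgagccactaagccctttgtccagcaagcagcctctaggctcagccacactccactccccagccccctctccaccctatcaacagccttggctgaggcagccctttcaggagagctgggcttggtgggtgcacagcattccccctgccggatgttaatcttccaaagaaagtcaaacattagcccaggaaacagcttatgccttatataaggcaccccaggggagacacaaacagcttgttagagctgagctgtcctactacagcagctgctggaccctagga
Slc22a27, chr19:7965978-7966277, minus strand: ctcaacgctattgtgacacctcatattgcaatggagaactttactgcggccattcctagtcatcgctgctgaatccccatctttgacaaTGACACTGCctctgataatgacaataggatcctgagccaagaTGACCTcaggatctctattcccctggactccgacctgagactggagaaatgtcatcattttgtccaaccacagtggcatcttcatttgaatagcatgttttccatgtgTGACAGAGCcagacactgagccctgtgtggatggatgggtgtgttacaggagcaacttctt
Slc22a5, chr11:53891654-53891953, minus strand: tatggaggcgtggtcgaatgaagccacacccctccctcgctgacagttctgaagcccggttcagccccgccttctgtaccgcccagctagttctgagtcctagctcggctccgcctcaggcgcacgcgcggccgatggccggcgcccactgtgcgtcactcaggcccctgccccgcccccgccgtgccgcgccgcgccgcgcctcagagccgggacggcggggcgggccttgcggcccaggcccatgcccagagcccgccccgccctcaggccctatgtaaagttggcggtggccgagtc

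RefSeq promoter windows were found for 42 of the 56 genes, in 51 windows. They were set beside 32851 windows of all genes, with a chromosome that holds none of the 56 genes left out. The core TGACNNNGC of the antioxidant response element occurred, on either strand, in 15.7% of the 51 windows and 12.4% of the 32851. In Slc22a27 it lay at 161 and 11 bases before the start. AGGTCA, the core of many nuclear receptor sites, was in 17.6% of the windows of these genes and 16.3% of all, once in Slc22a27 at 119 bases, on the opposite strand as TGACCT. CAAAGTCCA, a site of HNF4, was in none of the 51 windows and in 0.475% of all. None of the 3 motifs matched the Slc22a6, Slc22a8 or Slc22a5 window. The matches in the Slc22a27 window do not overlap each other, and a match describes letters only.

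Of the 56 transporter genes, 8 rose and 1 fell in Cre_positive libraries and 47 did not pass the threshold, an adjusted p of 0.05 by quasi-likelihood testing in edgeR with Benjamini-Hochberg adjustment. The 9 calls are 16.1% of the genes, where 7.55% of all 19927 genes tested passed, 3.73% higher and 3.82% lower. The genes that rose were Slc22a27, Slc22a18, Slc22a23, Slc22a17, Abcg1, Abcb6, Abcc6 and Abcc3, and the one that fell was the carnitine transporter Slc22a5. The median log2 fold change was 0.12 over the 56 genes and -0.000887 over all genes tested. All Cre_positive libraries lay above all Cre_negative ones for 15 genes and below them for 5, together 35.7%, where 29.7% of all genes tested did not overlap, 15.2% above and 14.5% below. The number of transporter calls depended on the libraries. It was 5, 3 and 4 without Cre_positive replicate 1, 2 and 3, and 6, 6 and 16 without Cre_negative replicate 1, 2 and 3. Calls over all genes tested moved as well, from 1505 to 700, 605 and 462 and to 1143, 1028 and 2039 in the same fits. Of the 9 calls, 4, 2 and 4 were among those made without each Cre_positive library in turn. All 56 passed the filter on low counts, and 54 had 10 or more counts in all 6 libraries. The 2 others were Abcg4 with 9, 36 and 0 counts in Cre_positive and 15, 6 and 46 counts in Cre_negative libraries, just inside the rule, and Abcg5. Just outside it lay Slco1a1, a transporter known from male mouse kidneys, with 3, 0 and 6 counts in Cre_positive and 20, 12 and 0 counts in Cre_negative libraries, and Slco1c1, with 4, 0 and 3 against 13, 4 and 32 counts. Of the 13 genes outside the rule, 6 had 0 counts in every library.

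**Figure D1:**
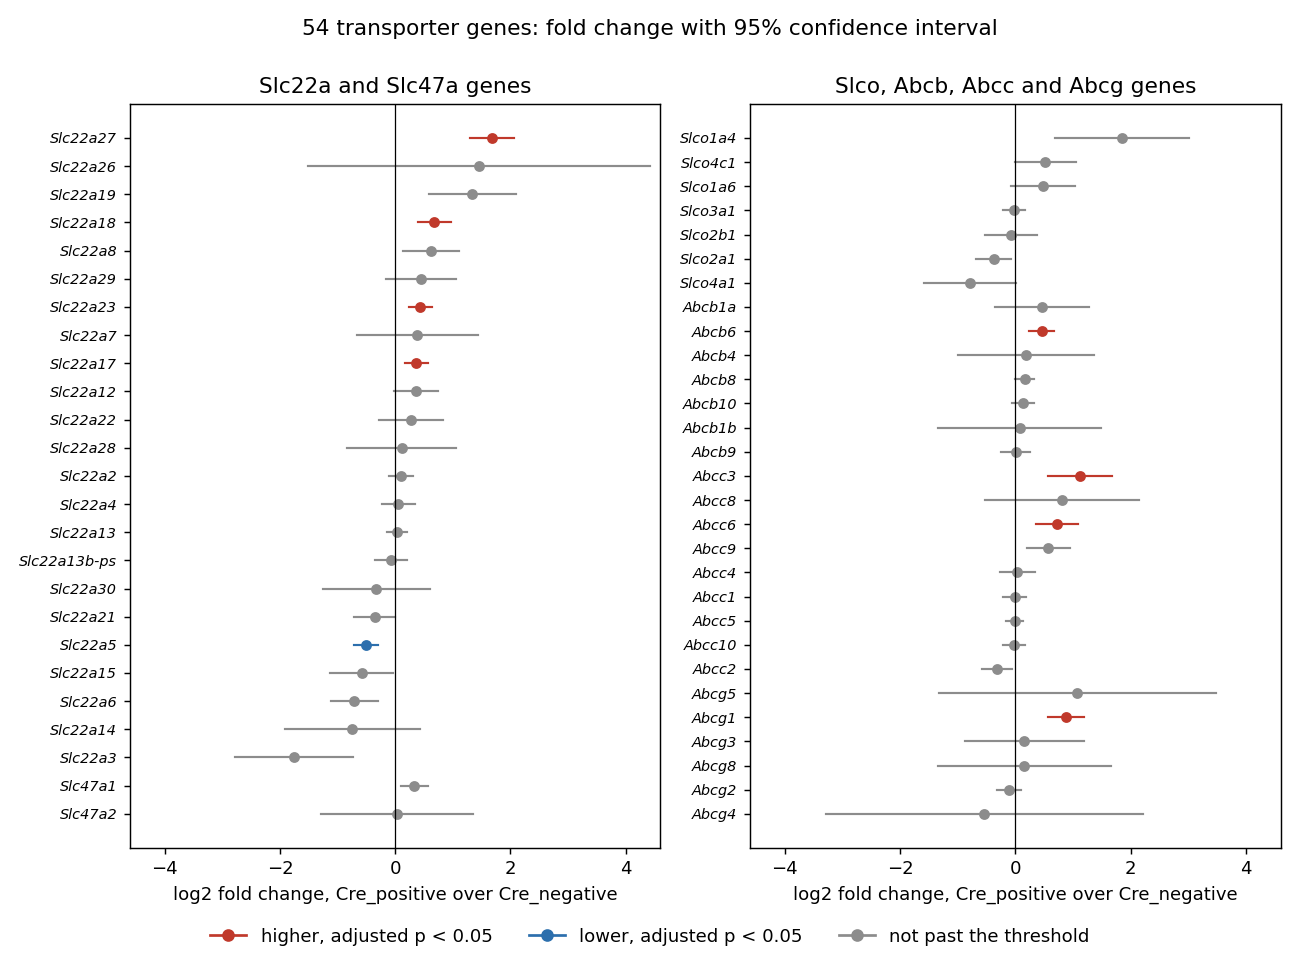
Fitted log2 fold change (x axis, Cre_positive over Cre_negative) of 54 of the 56 transporter genes (y axis), with bars for the 95% confidence interval, in red for the 8 that rose, blue for the 1 that fell and grey for the 45 that did not pass. The widest intervals belong to genes with few counts or with libraries of 1 genotype far apart, such as Slc22a26 and Abcg4. The low-count genes Abcg4 and Abcg5 are among those plotted.

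The pair of organic anion transporters that take most textbook substrates up from the blood differed in opposite directions between the genotypes, without overlap, and neither passed the threshold. Slc22a6 (ENSMUSG00000024650) had 324, 329.8 and 379.5 CPM in the Cre_positive libraries, against 491, 737 and 458 CPM in the Cre_negative ones. The 3 Cre_positive libraries lay below the 3 Cre_negative ones, with Cre_negative replicate 2 highest, and the log2 fold change was -0.71 (adjusted p = 0.0553, SE 0.18), with a 95% confidence interval of -1.12 to -0.29. Slc22a8 (ENSMUSG00000063796) had 597, 680.0 and 726 CPM in the Cre_positive libraries, against 316, 413 and 577 CPM in the Cre_negative ones. Here the Cre_positive libraries lay above the others, with Cre_negative replicate 3 close below them, and the log2 fold change was 0.62 (adjusted p = 0.128, SE 0.21), with a 95% confidence interval of 0.13 to 1.10. Slc22a6 passed without Cre_negative replicate 2 (adjusted p = 0.0348) or Cre_negative replicate 3 (adjusted p = 0.0277), with a smaller log2 fold change of -0.46 in the first case and a larger one of -0.83 in the second, and Slc22a8 without Cre_negative replicate 3 (adjusted p = 0.00909). DESeq2 called both, at an adjusted p of 3.52e-04 for Slc22a6 and 0.00768 for Slc22a8. Slc22a6 also passed with limma voom (adjusted p = 0.0314), robust=FALSE (0.0488) and a filter of 1 CPM or more in 3 libraries (0.0487). Of 15 alternative settings, leave-one-out fits included, Slc22a6 passed in 6 and Slc22a8 in 3.

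The ratio of Slc22a8 to Slc22a6, taken within each library and chosen after their values were seen, was 1.84, 2.06 and 1.91 in Cre_positive libraries, against 0.644, 0.560 and 1.26 in Cre_negative libraries. All 3 Cre_positive ratios were higher, which had to be so, since Slc22a8 lay above and Slc22a6 below the Cre_negative libraries without overlap. The log2 ratio averaged 0.95 ± 0.084 in Cre_positive and -0.38 ± 0.63 in Cre_negative libraries (SD, n = 3 each), a difference of 1.33. Since the genes were picked for their opposite directions, the ratio is a description. An exact permutation test of it gave p = 0.1, the smallest value possible with 3 libraries per genotype. The separation of both genes fixed this p-value in advance, so the test cannot decide. A ratio within a library does not depend on the scaling between libraries.

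**Figure D2:**
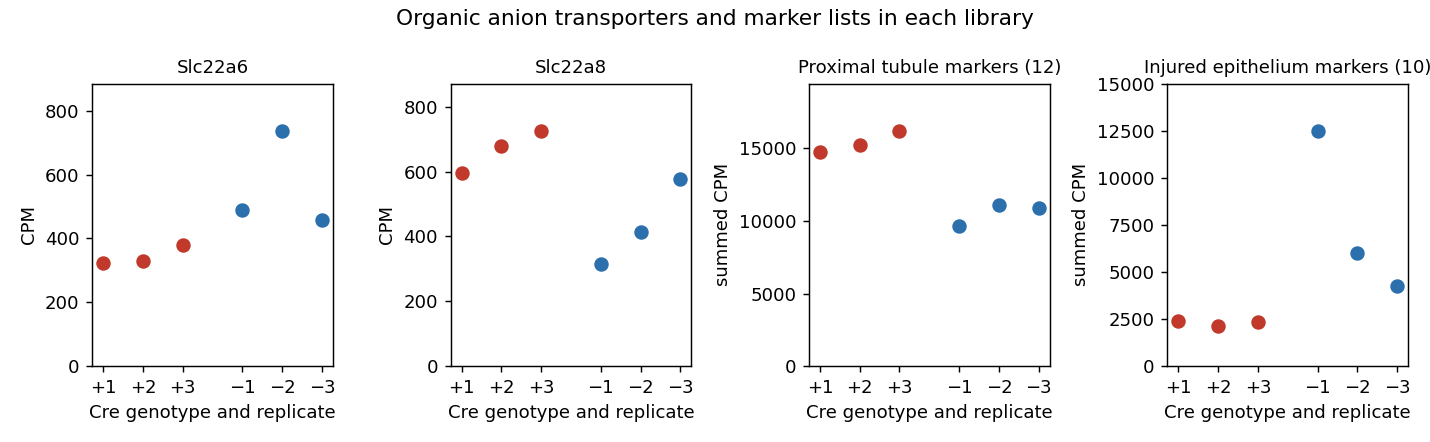
CPM of Slc22a6 and Slc22a8 and summed CPM of the proximal tubule and the injured epithelium markers (y axes, from 0) in each library (x axis, Cre_positive replicates +1 to +3 in red and Cre_negative replicates −1 to −3 in blue). Slc22a6 was at most 379.5 CPM in the Cre_positive libraries and at least 458 CPM in the others, whereas Slc22a8 and the proximal tubule sum were higher in the Cre_positive libraries and the injured epithelium sum was lower. Most of the injured epithelium sum is Spp1.

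Slc22a6 and Slc22a8 end a run of 8 Slc22a genes with no other protein-coding gene between them in RefSeq on GRCm38.p6, in the order Slc22a19, Slc22a26, Slc22a27, Slc22a28, Slc22a29, Slc22a30, Slc22a8 and Slc22a6. Of the 8, 1 rose (12.5%, where 7.55% of all genes tested passed), none fell and 7 did not pass. Their log2 fold changes ran from -0.71 to 1.68 with a median of 0.53. Slc22a27 (ENSMUSG00000067656), a rodent gene of the organic anion branch, had 9.77, 13.2 and 13.0 CPM in the Cre_positive libraries, against 3.79, 3.76 and 3.66 CPM in the Cre_negative ones. The Cre_negative libraries were close to each other and all Cre_positive libraries lay far above them, with a log2 fold change of 1.68 (adjusted p = 0.00118, SE 0.17), or 3.21-fold (95% confidence interval 2.46 to 4.18). This call held without any single library, at an adjusted p of up to 0.0122, and under all other settings tried. Its transcript shares 16.8% of its 75-base windows with other genes, most with Slc22a29, so its count is uncertain to that extent. Slc22a29 had 69.0, 43.5 and 47.6 CPM in Cre_positive and 36.6, 51.5 and 29.5 CPM in Cre_negative libraries, groups that overlap, and a log2 fold change of 0.44 (adjusted p = 0.352, SE 0.25). Leaving out 1 library moved it over a range of 0.22 (without Cre_positive replicate 1) to 0.69 (without Cre_negative replicate 2).

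Slc22a19, which encodes the anion transporter OAT5, had 159, 305 and 303 CPM in the Cre_positive libraries, against 88.2, 131 and 85.4 CPM in the Cre_negative ones. The groups did not overlap, but Cre_positive replicate 1 was well below the other 2, and the log2 fold change of 1.33 (adjusted p = 0.0590, SE 0.31) did not pass. Slc22a19 passed without Cre_positive replicate 1 (adjusted p = 0.00922), with robust=FALSE (adjusted p = 0.0226), with DESeq2 (adjusted p = 0.00156) and with limma voom (adjusted p = 0.0318). Its neighbour Slc22a26 was more uneven still, at 0.244, 5.69 and 10.9 CPM in Cre_positive and 2.39, 0.966 and 2.77 CPM in Cre_negative libraries. The Cre_positive libraries spanned both ends of its range, and its interval ran from -1.51 to 4.42 on the log2 scale. Slc22a28 and Slc22a30, whose transcripts share 44.8% and 29.6% of their windows with other genes, mostly each other, had log2 fold changes of 0.11 (SE 0.39) and -0.33 (SE 0.39). Both had their highest Cre_positive level in replicate 3, at 23.8 CPM for Slc22a28 and 15.8 CPM for Slc22a30. Their signs depended on single libraries, with ranges of -0.43 (without Cre_positive replicate 3) to 0.35 (without Cre_positive replicate 1) for Slc22a28 and -0.73 (without Cre_positive replicate 3) to 0.020 (without Cre_negative replicate 1) for Slc22a30.

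**Figure D3:**
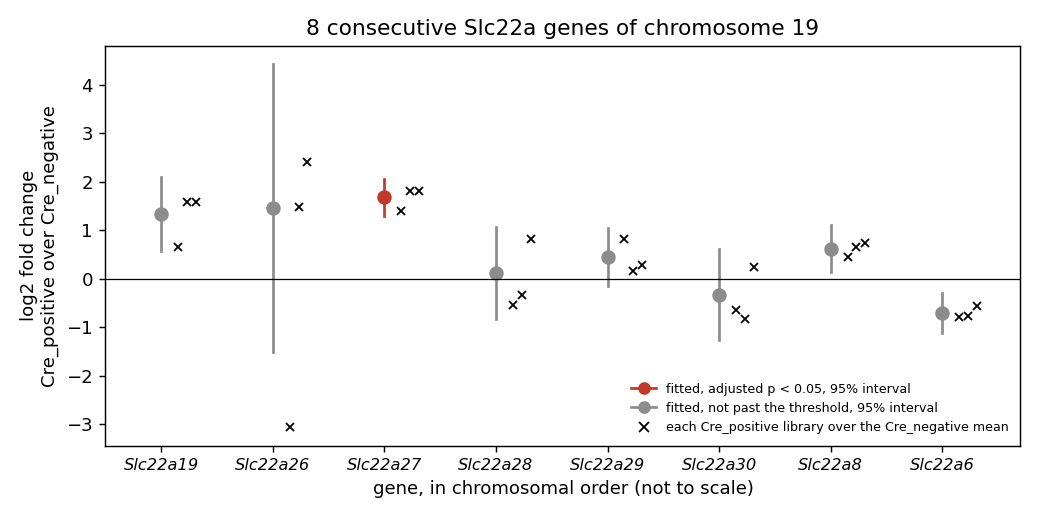
Log2 fold change (y axis, Cre_positive over Cre_negative) of the 8 consecutive Slc22a genes of chromosome 19 in their order (x axis, not to scale). Dots with bars are the fitted values with 95% confidence intervals, red for Slc22a27, which passed, and grey for the 7 that did not, and crosses are the 3 Cre_positive libraries, each over the Cre_negative mean. The crosses of Slc22a27 and Slc22a19 lie above 0, those of Slc22a6 below it, and those of Slc22a26 on both sides.

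The urate transporters of the organic anion branch did not pass. Slc22a12, which encodes URAT1, the apical exchanger that takes urate back from the urine, had 978, 1235 and 1217 CPM in the Cre_positive libraries, against 682, 922 and 1071 CPM in the Cre_negative ones. Cre_negative replicate 3 lay inside the range of the Cre_positive libraries, and the log2 fold change was 0.36 (adjusted p = 0.241, SE 0.17). Leaving out 1 library gave values from 0.20 (without Cre_negative replicate 1) to 0.51 (without Cre_negative replicate 3). Slc22a13, which encodes OAT10, a transporter of urate and nicotinate, had 145, 173 and 159.8 CPM in Cre_positive and 157, 154 and 157 CPM in Cre_negative libraries. The groups overlapped at a log2 fold change of 0.031 (SE 0.077) and a 95% confidence interval of -0.14 to 0.21, which allows 0.904 to 1.15 times the Cre_negative level. Its transcript shares 28.7% of its windows with other genes, mostly the pseudogene Slc22a13b-ps, which lay at -0.071 (SE 0.12) on the log2 scale. The remaining organic anion transporters were Slc22a7 (OAT2), at 0.39 (adjusted p = 0.654, SE 0.42), and the mouse prostaglandin transporter Slc22a22, at 0.28 (adjusted p = 0.548, SE 0.24), both with overlapping groups. With 1 library left out they ran from 0.067 (without Cre_negative replicate 2) to 0.90 (without Cre_negative replicate 3) for Slc22a7 and from 0.015 (without Cre_positive replicate 3) to 0.45 (without Cre_negative replicate 2) for Slc22a22. In all, 1 of 12 organic anion transporters rose, none fell and 11 did not pass, with a median log2 fold change of 0.37. That is 8.33% called, close to the 7.55% of all genes tested.

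None of the transporters of organic cations passed. Slc22a2 (OCT2), a basal uptake transporter of cations such as metformin, had 187, 228 and 214 CPM in Cre_positive and 179, 209 and 199.5 CPM in Cre_negative libraries, a log2 fold change of 0.10 (SE 0.095) with a 95% confidence interval of -0.12 to 0.32. The groups overlapped. Slc22a3 (OCT3), a transporter of monoamines and other cations, was scarce, at 11, 10 and 16 counts in Cre_positive and 56, 42 and 35 counts in Cre_negative libraries. The groups did not overlap and the log2 fold change was -1.75 (adjusted p = 0.0510, SE 0.45), past the threshold with DESeq2 (adjusted p = 0.0207), limma voom (0.0483) and robust=FALSE (0.0486). Slc47a1 (MATE1), which exports cations to the urine in exchange for protons, had 526, 578 and 586 CPM in the Cre_positive libraries, against 389, 475 and 479 CPM in the Cre_negative ones. Its Cre_positive libraries lay above the Cre_negative ones and its log2 fold change of 0.33 (adjusted p = 0.0842, SE 0.10) passed with DESeq2 alone (adjusted p = 0.0155). Slc47a2 had at most 72 counts in a library and a log2 fold change of 0.032 (SE 0.58).

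The carnitine transporter gene Slc22a5 fell. Slc22a5 (ENSMUSG00000018900) encodes OCTN2, which brings carnitine, the carrier of fatty acids into mitochondria, into cells and back from the urine. It had 200.3, 215 and 242 CPM in the Cre_positive libraries, against 301, 331 and 303 CPM in the Cre_negative ones, or 219 ± 20.9 CPM in Cre_positive and 312 ± 16.5 CPM in Cre_negative libraries (SD, n = 3 each). All Cre_positive libraries lay below all Cre_negative ones, at a log2 fold change of -0.51 (adjusted p = 0.0124, SE 0.089), or 0.703 times the Cre_negative level (95% confidence interval 0.611 to 0.809). The call ended without Cre_positive replicate 1 (adjusted p = 0.0571) or Cre_positive replicate 2 (adjusted p = 0.0630). The transcript of Slc22a5 shares 18.0% of its windows with other genes, mostly Slc22a21, so its count is uncertain to that extent. Slc22a21, the next gene on chromosome 11 and a carnitine transporter in mice, shares 15.9% of its windows with other genes, mostly Slc22a5. It had 9.27, 9.02 and 7.57 CPM in the Cre_positive libraries, against 9.29, 12.0 and 11.8 CPM in the Cre_negative ones, also without overlap, but its log2 fold change of -0.35 (adjusted p = 0.214, SE 0.16) did not pass. Slc22a4 (OCTN1), the ergothioneine transporter next in line, had overlapping groups and a log2 fold change of 0.057 (SE 0.12).

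The remaining Slc22a genes include 3 that rose. Slc22a18 (ENSMUSG00000000154), a putative ion transporter of the imprinted region of distal chromosome 7, had 368, 395 and 414 CPM in the Cre_positive libraries, against 197, 263 and 275 CPM in the Cre_negative ones. It was 1.60-fold higher in Cre_positive libraries, a log2 fold change of 0.68 (adjusted p = 0.0152, SE 0.12), with Cre_negative replicate 1 lowest, and the call ended without Cre_positive replicate 2 (adjusted p = 0.0654) or Cre_positive replicate 3 (adjusted p = 0.0774). Slc22a23 (ENSMUSG00000038267), whose substrate is not known, had 123, 146 and 149 CPM in the Cre_positive libraries, against 108, 104 and 97.2 CPM in the Cre_negative ones. Groups did not overlap at a log2 fold change of 0.43 (adjusted p = 0.0210, SE 0.088), and the call ended without Cre_negative replicate 2 (adjusted p = 0.0516), Cre_positive replicate 2 (adjusted p = 0.0922) or Cre_positive replicate 3 (adjusted p = 0.102). Slc22a17 (ENSMUSG00000022199) encodes a receptor for lipocalin 2, the iron-siderophore binding protein that injured tubules release, and had 71.8, 72.1 and 67.2 CPM in the Cre_positive libraries, against 47.8, 56.7 and 58.9 CPM in the Cre_negative ones. Its log2 fold change of 0.37 (adjusted p = 0.0424, SE 0.090) was the smallest among the 9 calls. That call ended when any library other than Cre_negative replicate 3 was left out, with adjusted p-values of up to 0.141 without Cre_positive replicate 2. Lcn2, the lipocalin 2 gene of the injured epithelium list, had 1.99, 4.16 and 2.03 CPM in Cre_positive and 129, 40.6 and 14.9 CPM in Cre_negative libraries without overlap, and did not pass (adjusted p = 0.0678). Slc22a15 had overlapping groups at -0.58 (adjusted p = 0.184, SE 0.24), and Slc22a14 at -0.74 (SE 0.50), a value that rested on Cre_negative replicate 3 (0.015 without it).

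**Figure D4:**
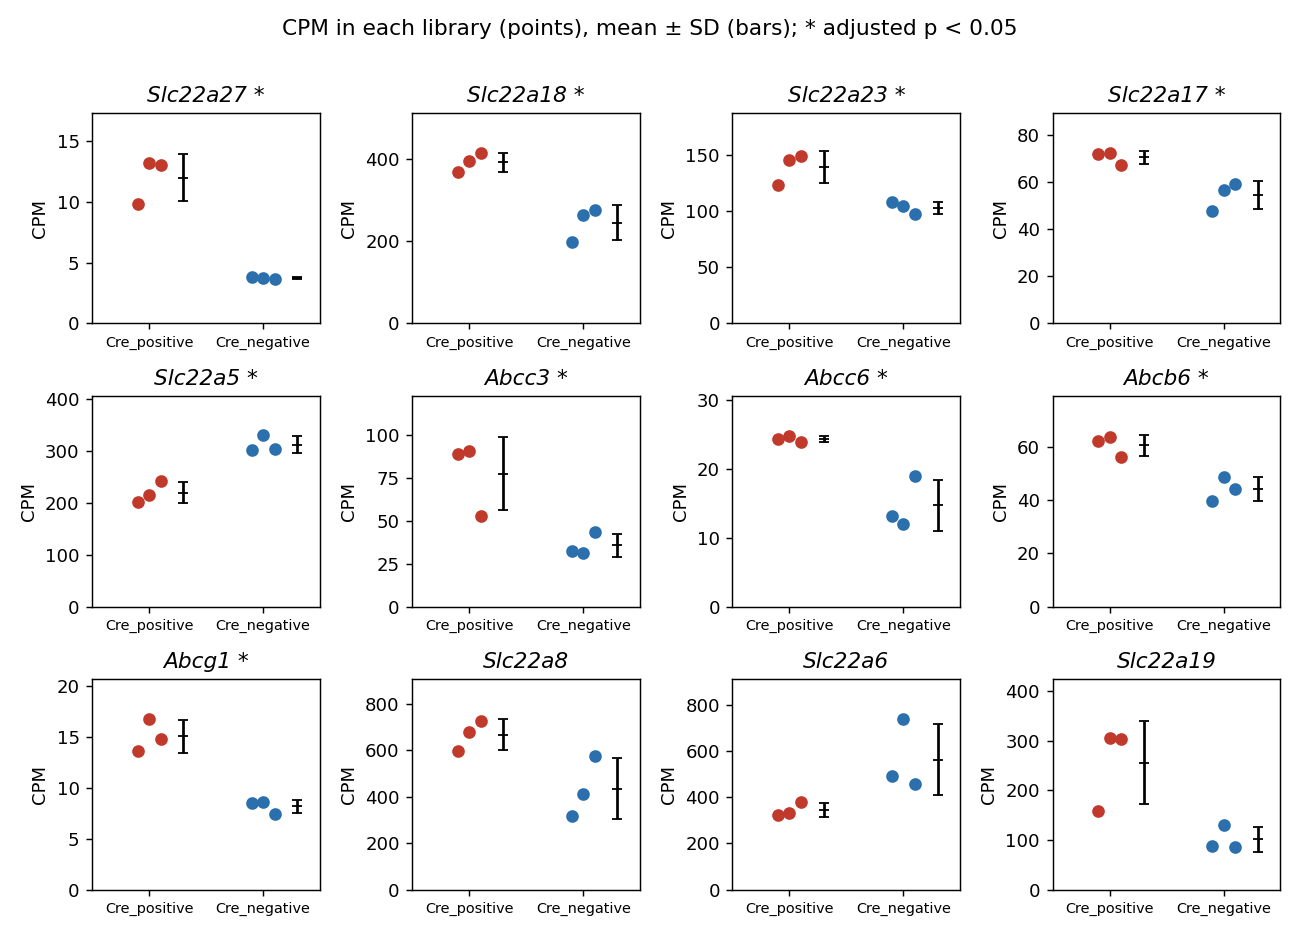
CPM (y axes, from 0) of the 9 genes past the threshold (marked with an asterisk) and of Slc22a8, Slc22a6 and Slc22a19 in the Cre_positive (red) and Cre_negative (blue) libraries, with the mean and SD beside them. In each of the 12 panels the points of the genotypes do not overlap.

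None of the 7 Slco genes, which encode organic anion transporting polypeptides, passed the threshold, and their median log2 fold change was -0.023. Slco1a6 had 285, 167 and 167 CPM in the Cre_positive libraries, against 156, 124 and 163 CPM in the Cre_negative ones. Its lowest Cre_positive libraries lay just above the highest Cre_negative one, at a log2 fold change of 0.48 (adjusted p = 0.275, SE 0.23). Without Cre_positive replicate 1 it was 0.18. Slco3a1 had 52.4, 61.6 and 62.4 CPM in Cre_positive and 62.5, 60.4 and 56.4 CPM in Cre_negative libraries, a log2 fold change of -0.023 (SE 0.087), with a 95% confidence interval of -0.22 to 0.18; the direction of its change turned without Cre_negative replicate 1 (0.011) or Cre_positive replicate 1 (0.054). Slco2a1, the prostaglandin uptake transporter, had 43.9, 45.8 and 45.2 CPM in the Cre_positive libraries, against 68.1, 61.2 and 45.8 CPM in the Cre_negative ones. The groups did not overlap, but Cre_negative replicate 3 lay just above the highest Cre_positive library, and the log2 fold change of -0.38 (adjusted p = 0.130, SE 0.13) passed without Cre_negative replicate 3 (adjusted p = 0.00805). Slco1a4 had 103, 206 and 195 counts in Cre_positive and 27, 30 and 88 counts in Cre_negative libraries, a log2 fold change of 1.85 (adjusted p = 0.0642, SE 0.51), which passed without Cre_negative replicate 3 (adjusted p = 0.00819) and with DESeq2 (adjusted p = 0.00331). Slco4c1, the renal transporter of digoxin and uraemic toxins, had 53.1, 42.6 and 48.1 CPM in Cre_positive and 33.9, 22.9 and 43.7 CPM in Cre_negative libraries, with Cre_negative replicate 3 inside the Cre_positive range and a log2 fold change of 0.52 (adjusted p = 0.222, SE 0.22). Without that library it was 0.76 (adjusted p = 0.0406). Slco4a1 was lowest in Cre_positive replicates 1 and 3, at 25.4 and 27.8 CPM, against 54.5 CPM in Cre_positive replicate 2 and 57.3, 74.6 and 53.6 CPM in Cre_negative libraries. Its log2 fold change was -0.78 (adjusted p = 0.222, SE 0.33), and -1.22 (adjusted p = 0.0117) without Cre_positive replicate 2. Slco2b1 had overlapping groups at -0.068 (SE 0.19).

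Among the 9 Abcc genes, Abcc3 and Abcc6 rose (22.2%, where 7.55% of all genes tested passed), none fell and 7 did not pass. Abcc3 (ENSMUSG00000020865) encodes MRP3, a basal exporter of glucuronide conjugates and bile salts, and had 89.0, 90.7 and 52.9 CPM in the Cre_positive libraries, against 32.5, 31.2 and 43.3 CPM in the Cre_negative ones. It was 2.17-fold higher in Cre_positive libraries, a log2 fold change of 1.12 (adjusted p = 0.0380, SE 0.23), although Cre_positive replicate 3 lay much closer to the Cre_negative libraries than the other 2. The call ended without Cre_negative replicate 1 (adjusted p = 0.149), Cre_negative replicate 2 (adjusted p = 0.124), Cre_positive replicate 1 (adjusted p = 0.112) or Cre_positive replicate 2 (adjusted p = 0.109). It ended also without a filter on low counts (adjusted p = 0.0731). Abcc6 (ENSMUSG00000030834), needed for the release of ATP that keeps soft tissue from calcifying, had 24.3, 24.8 and 23.9 CPM in the Cre_positive libraries, against 13.2, 12.0 and 18.9 CPM in the Cre_negative ones. The Cre_positive libraries were close to each other and above all Cre_negative ones, and the log2 fold change was 0.72 (adjusted p = 0.0305, SE 0.16); the call ended when any library but Cre_negative replicate 3 was left out, with adjusted p-values of up to 0.107 without Cre_positive replicate 2.

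The other 7 Abcc genes, exporters and channel subunits, did not pass. Abcc2 (MRP2), which sends conjugated anions into the urine, had 284, 315 and 359.5 CPM in the Cre_positive libraries, against 435, 409 and 349.8 CPM in the Cre_negative ones. Groups overlapped at a log2 fold change of -0.32 (adjusted p = 0.134, SE 0.11). Abcc4 (MRP4), an exporter of urate, cyclic nucleotides and organic anions, had 83.4, 119.8 and 115 CPM in Cre_positive and 107, 95.3 and 108 CPM in Cre_negative libraries, with Cre_positive replicate 1 the lowest of the 6. Its log2 fold change was 0.034 (SE 0.13), with a 95% confidence interval of -0.27 to 0.34, and its sign turned without Cre_negative replicate 2 and without Cre_positive replicate 2 or 3. Abcc5, an exporter of nucleotide analogues, had 83.9, 81.1 and 79.0 CPM in Cre_positive and 79.7, 80.4 and 86.2 CPM in Cre_negative libraries. Its 95% confidence interval of -0.16 to 0.14 on the log2 scale allows 0.892 to 1.10 times the Cre_negative level. Abcc1 and Abcc10 lay at -0.0096 (SE 0.089) and -0.026 (SE 0.083). The sulphonylurea receptor gene Abcc9, a subunit of the potassium channel of smooth muscle and pericytes, had 19.3, 15.5 and 17.9 CPM in the Cre_positive libraries, against 9.50, 11.7 and 14.3 CPM in the Cre_negative ones, without overlap, and a log2 fold change of 0.57 (adjusted p = 0.0718, SE 0.16). It passed without Cre_negative replicate 3 (adjusted p = 0.0252) and with DESeq2 (adjusted p = 0.0156). Beside it, of 5 mesangial markers 3 rose and 1 fell, with sums of 198 to 209.5 CPM in Cre_positive and 158 to 200.2 CPM in Cre_negative libraries, and their part in the Abcc9 values was not tested. Abcc8, the pancreatic counterpart, had at most 75 counts in a library.

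Of the 8 Abcb genes, Abcb6 rose (12.5%, where 7.55% of all genes tested passed), none fell and 7 did not pass. Abcb6 (ENSMUSG00000026198), a porphyrin transporter linked to haem synthesis, had 62.1, 63.5 and 56.0 CPM in the Cre_positive libraries, against 39.6, 48.5 and 44.1 CPM in the Cre_negative ones. Groups did not overlap at a log2 fold change of 0.46 (adjusted p = 0.0221, SE 0.094), and the call ended without Cre_positive replicate 1 (adjusted p = 0.0832), Cre_positive replicate 2 (adjusted p = 0.0941) or Cre_positive replicate 3 (adjusted p = 0.0568). Its transcript shares 64.5% of its windows with the overlapping gene model Gm29253 on the same strand, so its count is uncertain. Abcb8, which acts in mitochondrial iron export, had 77.5, 80.0 and 81.5 CPM in Cre_positive and 68.7, 68.8 and 76.2 CPM in Cre_negative libraries, without overlap, and a log2 fold change of 0.16 (adjusted p = 0.208, SE 0.070). Its mitochondrial relative Abcb10, needed for haem, had a log2 fold change of 0.13 (adjusted p = 0.399, SE 0.086). Of 6 red blood cell markers tested, Slc4a1 rose and 5 did not pass. Slc4a1 is also a marker of the collecting duct. The markers summed to 332.5, 396.5 and 684 CPM in Cre_positive and 147, 125 and 282 CPM in Cre_negative libraries, and their part in the Abcb6 values was not tested.

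P-glycoprotein, the drug efflux pump that mice encode in a pair of genes, stood out for 1 control library. Abcb1b had 51.2, 45.9 and 46.9 CPM in the Cre_positive libraries, against 27.5, 23.4 and 85.5 CPM in the Cre_negative ones. Cre_negative replicate 3 was the highest of all 6 and the other 2 Cre_negative libraries the lowest, so that the log2 fold change was 0.079 (SE 0.55) with a 95% confidence interval of -1.33 to 1.49. Without that library it was 0.92 (adjusted p = 0.00283), past the threshold. Abcb1a, its neighbour on chromosome 5, had 8.38, 9.55 and 13.4 CPM in Cre_positive and 6.31, 4.58 and 11.8 CPM in Cre_negative libraries, with Cre_negative replicate 3 again above the other 2 Cre_negative libraries and a log2 fold change of 0.47 (SE 0.35), which ran from 0.21 (without Cre_negative replicate 2) to 0.94 (without Cre_negative replicate 3) with 1 library left out. Their transcripts share 11.4% and 12.6% of their windows with other genes, mostly each other. Abcb4, a phospholipid exporter next to them, had at most 36 counts in a library. The lysosomal peptide transporter Abcb9 had a log2 fold change of 0.011 (SE 0.11), with a 95% confidence interval of -0.24 to 0.26.

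Abcg1 was the 1 of 6 Abcg genes that rose (16.7%, where 7.55% of all genes tested passed). Abcg1 (ENSMUSG00000024030), which moves cholesterol out of cells to lipoproteins, had 13.6, 16.8 and 14.9 CPM in the Cre_positive libraries, against 8.49, 8.62 and 7.48 CPM in the Cre_negative ones. It was 1.84-fold higher in Cre_positive libraries (95% confidence interval 1.49 to 2.27), a log2 fold change of 0.88 (adjusted p = 0.00710, SE 0.13), and this call held without any single library, at an adjusted p of up to 0.0427, and under all other settings tried. Abcg2 (BCRP), an apical exporter of urate and drugs, had 332, 307 and 362 CPM in Cre_positive and 394, 340.4 and 346 CPM in Cre_negative libraries. Groups overlapped at a log2 fold change of -0.11 (SE 0.093) with a 95% confidence interval of -0.32 to 0.099, which allows 0.800 to 1.07 times the Cre_negative level. The sterol transporters Abcg4, Abcg5 and Abcg8 and the rodent gene Abcg3 had at most 51 counts in a library and did not pass. Of 9 macrophage markers, a cell type that also expresses Abcg1, 2 fell and none rose, with sums of 169.5 to 185 CPM in Cre_positive and 186 to 343 CPM in Cre_negative libraries. The number that fell was 0, 0 and 0 without Cre_positive replicate 1, 2 and 3, and 2, 5 and 3 without Cre_negative replicate 1, 2 and 3. Of 9 glomerular endothelial markers 8 rose, with sums of 732 to 772.5 CPM in Cre_positive and 473.5 to 524 CPM in Cre_negative libraries. Of these, 8, 6 and 7 rose without Cre_positive replicate 1, 2 and 3. The part of either cell type in the Abcg1 values was not tested.

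Per kilobase of the longest GENCODE M21 transcript, the mean level was highest for Slc22a12 in both genotypes, at 514 CPM per kilobase in Cre_positive and 400.5 in Cre_negative libraries. Next among the genes named here, in Cre_positive libraries, came Slc22a18 (252), Slc22a8 (194) and Slc47a1 (189). In Cre_negative libraries they were Slc22a18 (158), Slc47a1 (149.8), Slc22a6 (141) and Slc22a8 (126), which are close to each other beside the spread of their libraries. The CPM of all 56 genes summed to 6036, 6668 and 6886 in Cre_positive and 5254, 6044 and 6083 in Cre_negative libraries, so the Cre_positive replicate 1 lay just below the highest Cre_negative libraries. The 12 proximal tubule markers, by contrast, did not overlap between the genotypes in their sums, and their median log2 fold change was 0.73.

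Genes that act on these transporters changed in both directions. Of 17 tested transcription factors and nuclear receptors that regulate transporter genes, 2 rose, 2 fell and 13 did not pass, with a median log2 fold change of 0.032. Nfe2l2 (NRF2), which drives antioxidant genes and several Abcc exporters, had 158, 144 and 151 CPM in the Cre_positive libraries, against 220.0, 233 and 247 CPM in the Cre_negative ones, a log2 fold change of -0.63 (adjusted p = 0.00230, SE 0.074), which held without any single library. Trp53 fell at -0.49 (adjusted p = 0.0216, SE 0.10). Esr1, the oestrogen receptor, rose at 1.17 (adjusted p = 0.0254, SE 0.24). The call of Esr1 ended without Cre_negative replicate 1 or any Cre_positive library (adjusted p up to 0.0922), and that of Trp53 without any 1 Cre_positive library (up to 0.0870). Hnf4a, a transcription factor of the proximal tubule, had 588, 609 and 675 CPM in the Cre_positive libraries, against 498, 519 and 547 CPM in the Cre_negative ones, without overlap, and an adjusted p of 0.108.

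The genes for the driving force of organic anion uptake and for transporter scaffolds included 1 fall. Of 8, Atp1b1, the beta subunit of the sodium pump, fell at -0.48 (adjusted p = 0.0314, SE 0.11) and 7 did not pass, with a median log2 fold change of -0.16. The call of Atp1b1 ended when any library but Cre_negative replicate 3 was left out (adjusted p up to 0.133). Slc13a3, which brings dicarboxylates into the tubule cell for the exchange, had 488, 560.1 and 570.2 CPM in Cre_positive and 490.4, 730.4 and 596 CPM in Cre_negative libraries and a log2 fold change of -0.17 (adjusted p = 0.535, SE 0.14). Pdzk1, the scaffold that holds apical transporters, had a log2 fold change of 0.048 (adjusted p = 0.836, SE 0.11). Of 8 genes of transporter turnover at the membrane, the kinase gene Prkcz alone rose, at 0.26 (adjusted p = 0.0448, SE 0.064), a call that ended when any library but Cre_negative replicate 3 was left out (adjusted p up to 0.169), and the median was 0.022.

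The other ABC families changed in both directions as well. Of 20 tested genes, 2 rose, 4 fell and 14 did not pass, with a median log2 fold change of 0.057. Abca1, the cholesterol exporter that works beside Abcg1, had 70.2, 73.2 and 60.8 CPM in the Cre_positive libraries, against 48.8, 27.0 and 32.7 CPM in the Cre_negative ones, and rose at 0.91 (adjusted p = 0.0493, SE 0.21). That call ended when any library but Cre_negative replicate 1 was left out (adjusted p up to 0.146) and under other scalings. Tap1 and Tap2, the peptide transporters that load MHC class I, fell at -1.44 (adjusted p = 0.00960, SE 0.21) and -0.75 (adjusted p = 0.00214, SE 0.087), and both calls held without any single library. Abca13 rose at 0.52 (adjusted p = 0.0146, SE 0.096), and the peroxisomal fatty acid transporter Abcd3 and the lipid transporter Abca7 fell at -0.48 (adjusted p = 0.0251, SE 0.10) and -0.51 (adjusted p = 0.0325, SE 0.12). The calls of Abca13 and Abcd3 ended without any 1 Cre_positive library (adjusted p up to 0.0647 and 0.108), and that of Abca7 without any of these or Cre_negative replicate 1 or 2 (up to 0.134).

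Kap, an androgen-regulated gene of the mouse proximal tubule, had 6717, 6818 and 5582 CPM in the Cre_positive libraries, Xist-poor replicate 2 included, against 138, 146 and 448 CPM in the Cre_negative ones, a log2 fold change of 4.71 (adjusted p = 0.0132, SE 0.59). Slc7a13, an amino acid transporter of the last proximal tubule segment, had 37.6, 89.2 and 81.9 CPM in the Cre_positive libraries, against 6.50, 19.2 and 7.64 CPM in the Cre_negative ones, without overlap and without passing (adjusted p = 0.0680). Of the 9 transporter genes past the threshold, Slc22a27 and Abcg1 also passed without Cre_positive replicate 2, and 7 did not. Slc22a27 then had a log2 fold change of 1.61 (adjusted p = 0.0107) and Abcg1 one of 0.80 (adjusted p = 0.0384). Of the 13 androgen-responsive and sex-differing genes, the 9 tested held 1 rise, Kap, and 1 fall, Cyp2j13, at -4.94 (adjusted p = 0.0225, SE 0.93), which ended without Cre_positive replicate 2 (adjusted p = 0.0969). The other 7, Slc7a13 among them, did not pass. Over all 9, 3 lay above 0 and 6 below it, with a median log2 fold change of -0.13.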

How the data were processed

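RNA from isolated glomeruli of 6 samples was sequenced, 3 Cre_positive and 3 Cre_negative. Per the labels' protocols, polyadenylated RNA was made into strand-marked libraries and sequenced as read pairs. The authors deposited 1 table of read counts per Ensembl gene, without normalization. Tools named in the submitters' processing notes are HISAT2, fastp, edgeR and StringTie, and the build is GRCm39, with no version or role. How strand and multiply mapped reads were treated is not given in the sources used here, so counts of genes that share sequence or overlap are uncertain.

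Symbols were found for 51880 of 57132 rows. Counts were analysed with R 4.3.3 and edgeR 4.0.16 (filterByExpr, TMM factors of 0.979 to 1.03, quasi-likelihood test with robust=TRUE, Benjamini-Hochberg adjustment over 19927 genes). Each SE was computed from the log2 fold change and its F statistic. CPM use the TMM factors. The share of 75-base windows found in another gene, transcript lengths and gene order come from GENCODE M21 and RefSeq on GRCm38, another build than that of the notes. The smallest chi-square per degree of freedom between 2 libraries was 20.6, so none was a copy of another. On a single simulated data set the fit made more false calls than its nominal rate and missed many small changes. A smaller share of genes changed there than was called here, so its rates need not hold for these data. Calls near the threshold are uncertain, and genes that did not pass may have changed. DESeq2 1.42.0 and limma 3.58.1 served as alternatives.

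The members, lists and tests were chosen with earlier results of these data known. Values in every library are given for Slc22a6, Slc22a8, the genes past the threshold and those averaging at least 50 CPM, with fold changes for the 10 smallest p-values not past it. Some genes counted here are not reported by name. Marker lists are given by counts and summed CPM. Other genes were named after their values were seen. Intervals cover 95%, and the depth of 53571438 to 58807042 counts leaves genes with few counts imprecise.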

Additional observations from a re-analysis of the deposited data

How the results depend on the processing

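With 1505 genes and 8 higher and 1 lower transporters called, an adjusted p of 0.01 left 414 genes and 2 higher and 0 lower transporters. A threshold of 0.10 gave 2562 genes and 12 higher and 3 lower transporters. DESeq2 gave 2697 genes and 13 higher and 3 lower transporters, the added ones being Slc22a6, Slc22a8, Slc22a19, Slc22a3, Slc47a1, Slco1a4 and Abcc9. Limma voom and robust=FALSE each gave 3 lower transporters, and requiring 1 CPM or more in 3 libraries gave 2. Leaving out 1 library gave 462 to 2039 genes, 2 to 13 higher and 0 to 3 lower transporters, and a median log2 fold change of 0.083 to 0.21 over the 56 genes. RLE and upper-quartile scaling kept all 9 transporter calls. Signs turned for Slco3a1 without Cre_negative replicate 1 (0.011) or Cre_positive replicate 1 (0.054), for Abcc4 without Cre_negative replicate 2 (-0.027) or Cre_positive replicate 2 (-0.062) or 3 (-0.029), for Abcc5 without Cre_negative replicate 3 (0.023) or Cre_positive replicate 3 (0.0075), and for Slc22a13 without Cre_positive replicate 2 (-0.032). Over all leave-one-out fits their log2 fold changes ran from -0.068 to 0.054 for Slco3a1, -0.062 to 0.18 for Abcc4, -0.036 to 0.023 for Abcc5 and -0.032 to 0.093 for Slc22a13. The cause was not tested. Over all genes tested, same-numbered samples hardly deviated together (correlations 0.0547, 0.0551 and 0.0173). The labels do not say whether the numbers pair samples, and these correlations cannot decide it. With the replicate block 1541 genes and 9 higher and 2 lower transporters passed: Abcc3 (0.134) and Slc22a17 (0.0550) were lost, and Slc22a8, Slc22a19, Slco1a4 and Slco4a1 gained. Depth limits Slc22a3, Slc47a2, Abcb4, Abcc8, Abcg3, Abcg4, Abcg5 and Abcg8, which had at most 75 counts in a library.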
